A study of Mus musculus with 2 samples.

Results

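Isolated wide binding peaks of estrogen receptor alpha (ERα) in the mouse mammary gland are described here. They were selected on their width and spacing in the deposited list of the peak caller MACS: a width of 400 to 1000 bp, no other peak of the list within 5 kb, and a position on chromosomes 1 to 19. The rule found 238 such peaks among 881 in the list and among 856 on chromosomes 1 to 19. The study immunoprecipitated chromatin of mammary gland pads with an ERα antibody and sequenced the recovered DNA (ChIP-seq). The mice were backcrossed onto the C57BL/6J background and were 5 to 6 weeks old, and no treatment or other allele is named for either group. The ChIP group was 1 library from tissue pooled from 6 mice, and the control group was 1 library of whole cell extract, so no value below has a replicate error.

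ERα is a nuclear receptor that estrogens activate in the hormone-sensing luminal cells of the mammary epithelium and in part of the surrounding stroma. The activated receptor dimerizes, binds estrogen response elements in DNA, mostly at enhancers, and recruits coactivators that open chromatin and raise transcription. During puberty this drives the growth of the ducts into the fat pad. A gland pad holds epithelium, stroma and fat, so the cell type in which a given peak was bound cannot be told apart. A sequence and a gene annotation of mm9, the assembly of the positions, were not used here, so no response element was searched for and peaks are named by position.

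The 238 isolated wide peaks were the larger part of the strong end of the MACS list. They made up 27.0% of all 881 peaks, but 40 of the 50 peaks with the highest scores, 81 of the top 100 and 143 of the top 200. The score is the negative log10 of the p-value that MACS gave to the peak in the ChIP against the control, multiplied by 10. Their scores had a median of 503 and quartiles of 298 and 843, with 76.74 as the lowest and 3100 as the highest. Of the 238, 219 (92.0%) scored above the median of the whole list, which was 175. Isolated peaks of 250 to under 400 bp (245 peaks) had a median score of 139, and isolated peaks under 250 bp (281 peaks) had a median of 102. Width was the value that chose the peaks, and score and width come from the same reads, so these differences are a description and were not tested.

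Most of the isolated wide peaks lay close to the lower limit of width. The widths had a median of 506 bp, quartiles of 452 and 556 bp, and a highest value of 826 bp. In all, 199 peaks were narrower than 600 bp and 39 were 600 bp or wider. The 2 peaks just inside the lower limit were chr13:4035721-4036120 (400 bp, score 146) and chr19:27445311-27445711 (401 bp, score 273). Just outside it lay chr15:35806064-35806461 (398 bp, score 288) and chr9:92561165-92561561 (397 bp, score 195). Scores on the 2 sides of this limit therefore overlapped. Among isolated peaks on these chromosomes the upper limit fell in an empty range: below it the widest were chr6:3150756-3151581 (826 bp, score 823) and chr10:21862104-21862914 (811 bp, score 91.9), and the next isolated peak above it was chr4:118219655-118221380 (1726 bp, score 1202).

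The distance limit removed 24 of the 262 peaks of 400 to 1000 bp on these chromosomes. The closest kept were chr3:85383713-85384290, with its nearest peak 5.694 kb away and a score of 1254, and chr8:73094197-73094705, at 5.905 kb with a score of 240. The farthest apart of those removed were chr12:16767119-16767593 (score 476) and chr12:16771468-16771951 (score 331), which lay 3874 bp from each other. This pair on chromosome 12 had widths and scores inside the range of the kept peaks.

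Within the isolated wide peaks, wider peaks had higher scores up to a width of 700 bp. The median score was 275 in the 56 peaks of 400 to 449 bp, 421 in the 56 of 450 to 499 bp, and 537 in the 59 of 500 to 549 bp. It was 851 in the 28 peaks of 550 to 599 bp and 1738 in the 25 of 600 to 699 bp. The 14 peaks of 700 bp or more had a median of 1493 but spread from 91.9 to 3100, so the widest peaks held both the strongest and some of the weakest. Across the 238 peaks, width and log10 score had a Pearson r of 0.61 and a Spearman rho of 0.67, a description across regions that share 1 library.

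**Figure D1:**
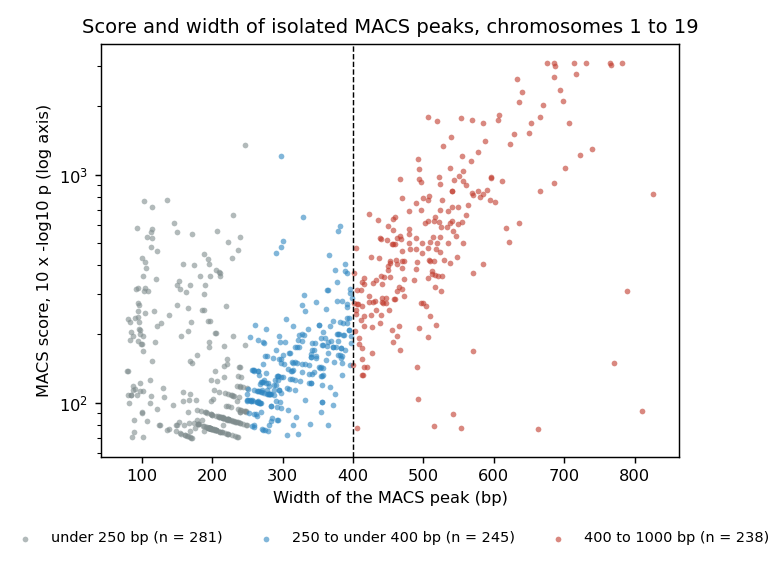
MACS score (vertical log axis) against peak width in bp (horizontal axis) for isolated peaks of up to 1000 bp on chromosomes 1 to 19; each point is 1 peak, coloured by width class, and the dashed line marks 400 bp. The 238 peaks to the right of the line reach the score limit of 3100, and 6 of them score under 100.

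The 10 strongest isolated wide peaks lay on 8 chromosomes, and 7 of them had no other peak within 100 kb. Standing alone was not particular to the strongest, since only 49 of all 238 (20.6%) had another peak within that distance. A score of 3100, the highest in the list, was shared by 6 of these 10, so the score does not rank those 6. They were chr10:69622190-69622954, chr11:87968886-87969599, chr16:25220473-25221203, chr2:158348656-158349330, chr7:74606847-74607531 and chr8:81638274-81639055. Their widths ran from 675 to 782 bp. The nearest other peak was 4624589 bp away for the one on chromosome 8, and 17247 bp away for the one on chromosome 16. Next came chr11:70096941-70097706 with a score of 3024 and chr6:100009708-100010394 with a score of 3013. The last of the top 10 were chr13:72585687-72586403 with a score of 2762 and chr11:100731754-100732438 with a score of 2672. Chromosome 11 thus held 3 of the 10, and the other 7 were on 7 chromosomes.

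The second deposited list, from the caller CCAT, placed the same peaks at its top. The value that CCAT gives each region was taken to be a false discovery rate, and its list is sorted by that rate from low to high. What orders the lines within a rate is not given in the sources used here. Its first 6 lines were the regions around the 6 isolated wide peaks with a score of 3100, with the one on chromosome 8 in line 1. The score of 3100 was also reached among isolated peaks over 1000 bp and among peaks with a neighbour within 5 kb. An isolated wide peak lay in 49 of the first 50 lines and in 94 of the first 100. Over the 233 isolated wide peaks with a CCAT region, log10 score and log10 line had a Spearman rho of -0.95 (Pearson r = -0.93). Within the 151 peaks at the lowest rate, 0.005, rho was -0.94. Both callers used the same reads, so this likeness of order is a description and no replication.

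**Figure D2:**
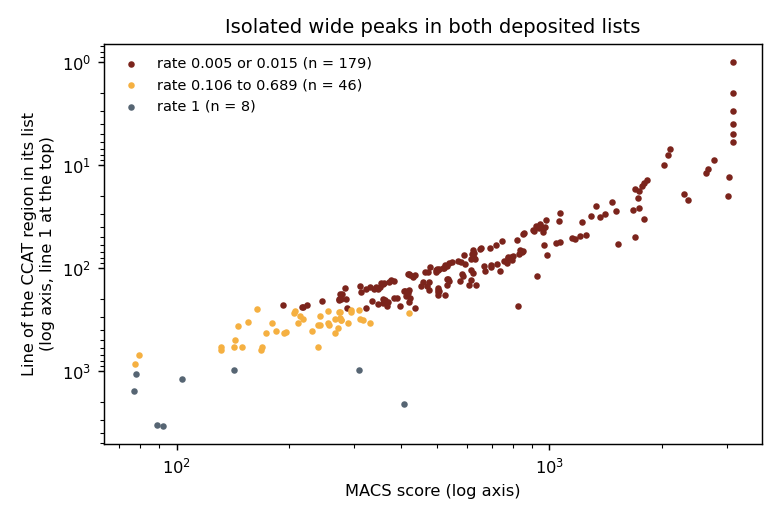
Line of the overlapping CCAT region in the CCAT list (vertical log axis, line 1 at the top) against MACS score (horizontal log axis) for the 233 isolated wide peaks with a CCAT region; each point is 1 peak, coloured by the CCAT rate. The points follow 1 band from the upper right to the lower left, and 2 of the 8 peaks with a rate of 1 lie below it at scores of 309 and 408.

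A low CCAT rate was common among the isolated wide peaks. Such a rate, 5% or lower, was reached at 179 of 238 (75.2%, 95% Wilson interval 69.4 to 80.3%), against 28.9% of all 856 MACS peaks on chromosomes 1 to 19. Of the 179, 151 were at 0.005 and 28 at 0.015. A further 37 had a rate from 0.106 to 0.298, 9 from 0.531 to 0.689, and 8 a rate of 1. Any CCAT region overlapped 233 (97.9%, 95.2 to 99.1%), where the share of all 856 peaks was 97.0%. The rates come from the same reads as the widths that chose the peaks, so these shares are a description. Seen from the CCAT list, 151 of its 177 regions at 0.005 on chromosomes 1 to 19 held an isolated wide peak (85.3%), as did 28 of 60 at 0.015 (46.7%) and 8 of 51403 at a rate of 1. These intervals cover counting error alone.

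**Figure D3:**
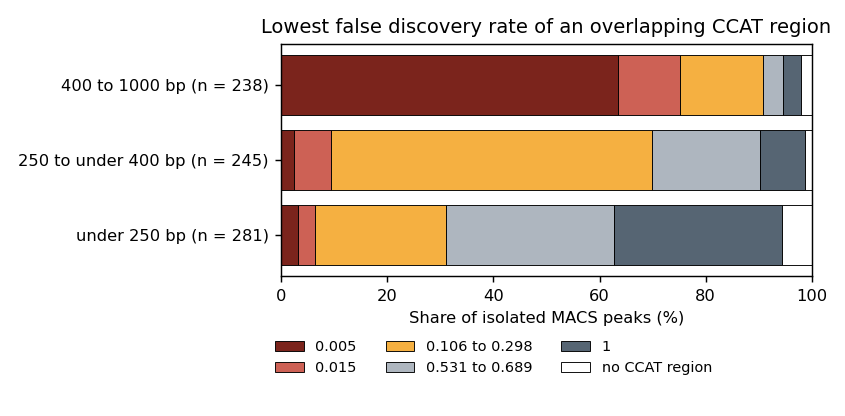
Share of isolated MACS peaks (horizontal axis, %) by the lowest false discovery rate of an overlapping CCAT region, with 1 bar for each width class. Rates of 0.005 and 0.015 together fill 75.2% of the bar of peaks of 400 to 1000 bp, 9.39% of the bar for 250 to under 400 bp and 6.41% of the bar for under 250 bp.

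Peaks of the width classes were also set side by side within bands of score, because the score differed between them. Between scores of 250 and 500, a CCAT rate of at most 5% was found for 57 of 80 isolated wide peaks (71.3%, 95% Wilson interval 60.5 to 80.0%). In that band it was found for 12 of 22 peaks of 250 to under 400 bp (54.5%, 34.7 to 73.1%) and for 4 of 41 peaks under 250 bp (9.76%, 3.86 to 22.5%). The interval of the wide peaks overlapped that of the middle class but not that of the narrow class. Between 500 and 1000 the shares were 75 of 78 (96.2%, 89.3 to 98.7%) in wide and 13 of 15 (86.7%, 62.1 to 96.3%) in narrow peaks, with overlapping intervals. The middle class had 3 of 4 there. Between 150 and 250 they were 5 of 24 (20.8%, 9.24 to 40.5%) in wide, 7 of 80 (8.75%, 4.30 to 17.0%) in middle and 0 of 37 (0 to 9.41%) in narrow peaks, again overlapping. The band from 250 to 500 was the only one where the wide and narrow intervals separated. From 150 to 250 they met only between 9.24 and 9.41%, and overlap does not show that classes were alike. Below a score of 150, no isolated peak of any of the 3 width classes had such a rate, and the isolated wide peaks in that range numbered 14. Wide peaks formed 3.37% of isolated peaks of up to 1000 bp with scores from 70 to 100 and 95.5% of those with scores of 1000 or more. The bands hold few peaks of some classes. Scores were not matched within a band, so the classes can still differ in score there. The differences between classes were not tested.

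**Figure D4:**
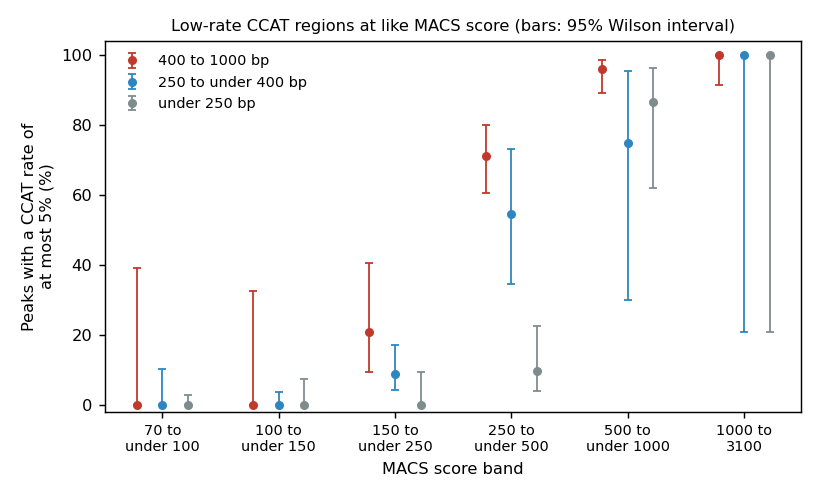
Share of isolated peaks with a CCAT rate of at most 5% (vertical axis, %) in 6 bands of MACS score (horizontal axis), by width class; points are shares and bars are 95% Wilson intervals. In the band from 250 to under 500 the wide peaks sit at 71.3% and the narrow ones at 9.76%, while from 500 the intervals of the 3 classes overlap.

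The callers also placed the isolated wide peaks at nearly the same point. All 233 with a CCAT region lay wholly inside it, and each met 1 CCAT region only. Isolated peaks of the other width classes also lay wholly inside theirs, so this was not particular to the wide ones. The CCAT regions of the wide peaks had a median width of 1300 bp. They reached past the MACS peak by a median of 383 bp on the side of lower coordinates and 391 bp on the other. These medians were 432.5 and 436 bp for peaks of 250 to under 400 bp, and 497 and 512 bp for peaks under 250 bp. For the wide peaks, the midpoints of the 2 intervals were a median of 23.0 bp apart and within 50 bp for 186 peaks. As a share of those with a CCAT region that is 79.8%, against 73.1% for peaks of 250 to under 400 bp and 64.9% for peaks under 250 bp. CCAT positions lie on a coarse grid, so small distances are not resolved.

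In 12 isolated wide peaks the midpoints lay over 250 bp apart, and these peaks were singled out after their values were seen. The strongest was chr7:74606847-74607531, one of the 6 isolated wide peaks at the highest score, whose CCAT region (chr7:74606501-74608950) ran on for 1419 bp past its end. A second was chr14:26328816-26329438 (score 1370), whose region began 1565 bp before it. The region around chr16:3235725-3236294 (score 168) was the widest, at 8800 bp, and that around chr8:56198950-56199720 (score 150) was 6150 bp wide. Midpoints that lie apart mean that the CCAT region reached unequally past the ends of the peak. The choice of these peaks therefore fixed this unequal reach, which is no separate result. Its size differed: the region around chr16:3235725-3236294 reached 4374 bp before the peak and 3856 bp past it. Around chr8:56198950-56199720 these values were 1499 and 3880 bp.

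A small set of isolated wide peaks was weak in both lists. Of the 238, 6 scored under 100, and their widths (median 548 bp) were within the range of the others. They were chr1:85087100-85087762, chr1:85106045-85106559, chr1:85259702-85260106, chr1:87485371-87485923, chr10:21862104-21862914 and a peak at the start of chromosome 18 (3008452 to 3008993). Scores ran from 76.74 for the first of these to 91.9 for the one on chromosome 10. None had a CCAT rate of at most 5%: the rate was 0.689 for 2 and 1 for 4. Their CCAT regions were wider than those of the other peaks, with a median of 1850 bp against 1300 bp, and their midpoints lay a median of 264 bp apart against 22.5 bp for the rest. The first 3 of these weak wide peaks lay within a stretch of 173 kb on chromosome 1. These 6 were also singled out after their values were seen.

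The callers differed most over 2 peaks of middling score. The peak chr2:98503745-98504328 (584 bp) had a score of 408 but a CCAT rate of 1, in line 2085. Likewise chr12:68160141-68160929 (789 bp) had a score of 309 and a rate of 1, in line 964. The lowest score of an isolated wide peak with a rate of at most 5% was 193, and peaks with a higher rate reached a score of 420 at chr16:57391427-57391879 (rate 0.106). Between these scores both outcomes occurred. What distinguishes the peaks on chromosomes 2 and 12 was not tested.

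No CCAT region overlapped 5 isolated wide peaks, and each of the 5 lay beyond the point where the CCAT list ended on its chromosome. They were chr16:96032600-96033140 (score 850), chr16:97453545-97454035 (score 412), chr17:84313304-84313811 (score 803), chr17:86663185-86663599 (score 352) and a peak on chromosome 18 (82937766 to 82938244, score 692). The CCAT list ended at 90311450 on chromosome 16 and at 81152150 on chromosome 17. With these 5 left out, all 233 remaining peaks had a CCAT region and 76.8% had a rate of at most 5%. The scores of the 5, from 352 to 850, were all above 193, the lowest score found with a rate of at most 5%. Those of 352 and 412 lay below 420, the highest score found with a higher rate, so both outcomes occurred in their range.

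Isolated wide peaks were found on each of chromosomes 1 to 19, with 6 to 21 per chromosome. Relative to length there were 9.63 per 100 Mb. The density was lowest on chromosome 7, with 5.25 per 100 Mb (exact 95% Poisson interval 2.26 to 10.3), and highest on chromosome 16, with 16.3 (9.30 to 26.4). Chromosome 11 followed with 15.6 (9.39 to 24.4). The interval of each of the 19 chromosomes included the overall density, so at these counts no chromosome stood apart beyond counting error. As a share of isolated peaks of up to 1000 bp, the wide ones ranged from 19.4% on chromosome 17 to 40.4% on chromosome 4.

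**Figure D5:**
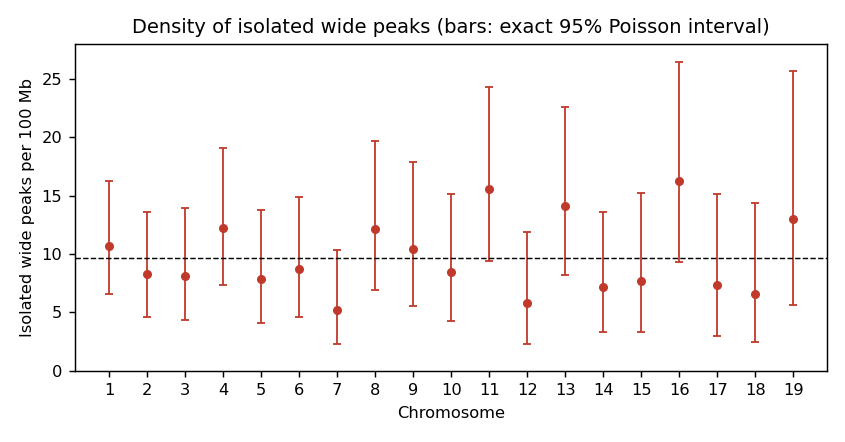
Isolated wide peaks per 100 Mb (vertical axis) on chromosomes 1 to 19 (horizontal axis); points are densities, bars are exact 95% Poisson intervals and the dashed line is the overall density of 9.63. Chromosome 7 is lowest at 5.25 and chromosome 16 highest at 16.3, and every bar crosses the line.

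Most isolated wide peaks stood alone over long stretches. The nearest other MACS peak was a median of 524 kb away and at most 9.02 Mb, and the nearest other isolated wide peak a median of 2094 kb. This was not particular to them: the median to the nearest peak was 605 kb for isolated peaks of 250 to under 400 bp and 726 kb for those under 250 bp. Another MACS peak lay within 100 kb of 49 of 238 (20.6%, 95% Wilson interval 15.9 to 26.2%). For isolated peaks of 250 to under 400 bp that share was 17.1% (12.9 to 22.4%), and for those under 250 bp it was 9.61% (6.69 to 13.6%). The intervals of the wide and the narrow peaks did not overlap, while those of the wide and the middle class did. Peaks near each other count each other, so they are not independent, and these intervals leave that out. The nearest peak of these 49 was another isolated wide peak for 19, one of 250 to under 400 bp for 17, and one under 250 bp for 11.

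Where a narrower peak was the nearest one, the wide peak had the higher score in most cases. It did so beside 16 of 17 peaks of 250 to under 400 bp and beside 10 of 11 peaks under 250 bp. The classes differed in the same direction at any distance, with median scores of 503, 139 and 102 from wide to narrow. These counts therefore describe the classes and show nothing particular to neighbours. At chr11:100731754-100732438 the score was 2672, and the neighbour 15.831 kb away (chr11:100715541-100715922) had a score of 225. An exception was chr8:86263645-86264094 with a score of 398, whose narrow neighbour 16.579 kb away (chr8:86280674-86280896) had a score of 507.

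Within 100 kb of each other lay 10 pairs of isolated wide peaks, with no larger group. The closest pair was on chromosome 3, with chr3:133411650-133412174 (score 309) and chr3:133421225-133421657 (score 254) 9.05 kb apart and both at a CCAT rate of 0.106. On chromosome 19, chr19:55160550-55160989 (score 520) and chr19:55177441-55177913 (score 418) were 16451 bp apart and both at 0.005. Other pairs were unequal: chr16:25158270-25158769 had a score of 273 beside 3100 for chr16:25220473-25221203. On chromosome 13, chr13:30862825-30863459 (score 615) lay 42429 bp from chr13:30905889-30906582 (score 2359). The pairs thus included both similar and very different scores. The 20 peaks of these pairs were 8.40% of the 238 isolated wide peaks. Among isolated peaks of 250 to under 400 bp, 6.12% had one of their own class within 100 kb. For those under 250 bp the share was 2.85%.

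Weak CCAT regions in the flanks were found at like shares around the isolated wide peaks and the middle class. A CCAT region with a rate of 1 lay 1 to 10 kb from 120 of the 233 wide peaks within reach of the CCAT list, leaving out those under 10 kb from its end on a chromosome (51.5%, 95% Wilson interval 45.1 to 57.8%). The share was 51.2% (45.0 to 57.5%) for peaks of 250 to under 400 bp and 40.0% (34.3 to 46.0%) for peaks under 250 bp.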

How the data were processed

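Per the labels' protocols, sonicated chromatin was immunoprecipitated, libraries were amplified by 15 cycles of PCR and fragments of about 250 bp were cut from a gel. The submitters' processing notes name BWA, MACS 1.4.1 and mm9, without settings. Each peak of the deposited MACS list has a score, taken to be the negative log10 of its p-value multiplied by 10, as this caller writes it. Each region of the deposited CCAT list has a value between 0.005 and 1 that rises down the list and was taken to be a false discovery rate, a q-value. Neither list gives read counts or summits, so the depth is unknown.

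Starts were moved to count from base 1. The 428 CCAT lines that repeat a position were dropped. Overlap meant at least 1 bp, and a peak took the lowest rate among its regions. Chromosome lengths came from GenomeInfoDb 1.38.1. Each group has 1 library, and the values come from the reads that chose the peaks, so nothing was tested. Wilson and Poisson intervals (95%) cover counting error alone, and regions of a library are not replicates. The distance and overlap code found no error on 400 simulated intervals. Named are the 10 peaks with the highest score, those at the limits of the rule, and others singled out after their values were seen. The peaks, classes and alternatives were chosen with earlier results of these data known. The tools were matplotlib 3.10.9, scipy 1.17.1, pandas 2.3.3 and numpy 2.4.6 under Python 3.11.15.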

Additional observations from a re-analysis of the deposited data

How the results depend on the processing

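The number of isolated wide peaks was 245 with an isolation distance of 1 kb, 232 with 10 kb and 182 with a width of 450 to 900 bp, against 238. Their median score was 498.9, 503 and 615 in these sets, against 503. The share with a CCAT region, 97.9%, was the same when 50% or more of the peak had to be covered, and was 97.7% for peaks scoring above the median of the list. It was 75.2% with a rate of at most 5%, and 100% without the 5 peaks beyond the end of the CCAT list. The share with a rate of at most 5%, 75.2%, was 63.4% with a rate of at most 1%, 81.7% for peaks scoring above the median, and 83.0% with a width of 450 to 900 bp. It was 74.7% and 76.3% with isolation distances of 1 and 10 kb. The alternatives for this last share, the end of the CCAT list and the median score under other distances were chosen after seeing the data. The planned motif, base composition and gene analyses, with their alternatives, were not run, since no mm9 sequence or annotation was used here. Each group has a single library, so neither pairing nor leaving a library out was possible. What depth limits was not tested.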
